A study of Rattus norvegicus with 6 samples.

Results

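The genes described here encode the proteins of the cytosolic ribosome, Rps genes for the small subunit and Rpl and Rplp genes for the large one. They were chosen by symbol (Rps or Rpl with a number and an optional copy suffix, Rplp0 to Rplp2, and Rpsa) and by a level of at least 5 CPM (UMI counts of a gene per 1000000 counts of all genes) over all cell barcodes of a single-cell table of rat hippocampus. The pattern matched 109 of the 30452 genes in the table, and 81 reached the level, 35 of the small and 46 of the large subunit. The 81 carry 76 symbols, because 5 of them share a symbol with a more abundant member; each of those 5 is called the second feature of its symbol. The other 28 matching features held fewer counts, 9 of them 0, and enter no value below. The member closest to the limit was Rpl37 at 6.90 CPM, followed by the second Rps29 feature at 7.51 CPM, and the closest feature outside was a second Rpl8 feature at 2.99 CPM. Of 77 listed symbols of cytosolic ribosomal proteins, 68 are in the table and 67 are members, and Rpl35a lay below the level. The table holds no gene under the symbols Rpl7, Rpl10, Rpl13a, Rpl27a, Rpl36, Rpl37a, Rpl41, Rps7 and Rps26, so these were not analysed here.

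The labels describe 3 irradiated samples, R1 to R3, whose rats had received 20 Gy to the whole brain 2 months before dissection, and 3 control samples, N1 to N3. All are hippocampi of male Rattus norvegicus. The tissue was minced and digested, red cells were lysed, dead cells were removed with magnetic beads, and the suspension was loaded on the Chromium droplet system, in which each transcript is counted once at its 3′ end through a unique molecular identifier (UMI). The sources used here do not state strain, age or pooling of animals. The table joins 6 libraries, numbered 1 to 6 by the ending of each cell barcode. No label ties these numbers to the 6 samples, so 0 libraries were assigned to a condition and irradiated animals were not compared with controls. Libraries are given side by side with no group. They are not replicates of one condition, and cells are not replicates either, so no p-value or standard error is given.

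The table held 329205505 UMIs over 58078 barcodes, between 46853113 and 62094407 per library. After filters and removal of likely doublets, 45393 cells were kept with a median of 4976 UMIs. They fell into 36 clusters, made without the ribosomal protein genes, so that the class names do not rest on them. A cluster carries a name such as astrocyte-like where markers of that class led. Of the barcode sequences, 410 occurred in more than 1 library, on 643 kept cells. Library 3 stood apart. Its 7154 microglia-like cells lay almost wholly in clusters 1 and 6, which held 4490 and 2441 of them, while those of libraries 1 and 2 lay mostly in clusters 0 and 2 and those of libraries 4 to 6 in cluster 5. In microglia-like cells, library 3 also held the highest share of ribosomal protein UMIs for 32 of the 81 members and the lowest for 34, against 4 to 13 members at either end in each other library. Some pooled values are also given without library 3, and the others include it.

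A ribosome needs one copy of nearly every one of these proteins, and their messengers are among the most abundant in most cells. Most of them belong to the 5′ TOP class, mRNAs whose first base is a cytidine followed by a run of pyrimidines, and their translation depends on TOR kinase signalling and the cap-binding protein Larp1. In single-cell data these messengers are known to make up a large part of the transcripts of resting T cells. A few members have a close paralogue (Rpl22 and Rpl22l1, Rps27 and Rps27l, Rpl10 and Rpl10l) that can stand in its place in some tissues.

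Over all barcodes, 6.31% of UMIs came from the 81 genes. The share differed widely between cell classes. T or NK cell-like cells held 20.4% (Clopper-Pearson 95% interval 20.39% to 20.47%), Clec7a Lyz2 macrophage-like cells 13.8%, mature oligodendrocyte-like cells 4.57%, astrocyte-like cells 2.44% (2.433% to 2.44%) and microglia-like cells 6.70% (6.696% to 6.706%). These intervals cover counting error only. The spread between libraries was far wider than the intervals, and so the library values, not the intervals, show how stable each share was. Free RNA was neither estimated nor removed.

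In libraries 1 to 6, T or NK cell-like cells held 22.1%, 25.1%, 18.5%, 20.4%, 20.5% and 20.7% ribosomal protein UMIs. Astrocyte-like cells held 1.80%, 2.15%, 2.47%, 2.75%, 2.37% and 2.32%. Microglia-like cells of the same libraries held 7.74%, 5.47%, 5.35%, 9.61%, 7.45% and 10.4%. The 6 T or NK cell-like values all lay above the 6 microglia-like values, and the 6 astrocyte-like values all lay below them. Mature oligodendrocyte-like cells held 4.28%, 4.31%, 4.53%, 4.14%, 4.91% and 4.50%, also below every microglia-like value, and they varied least of these classes. Clec7a Lyz2 macrophage-like cells, a class of 7329 cells with Clec7a, Lyz2 and Lgals3 among the leading genes of its clusters, were frequent enough to be measured in libraries 4, 5 and 6, at 9.79%, 12.4% and 16.7%. In library 4 this was close to the 9.61% of microglia-like cells there, and in libraries 5 and 6 it was 1.67 and 1.60 times the microglia-like share.

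**Figure D1:**
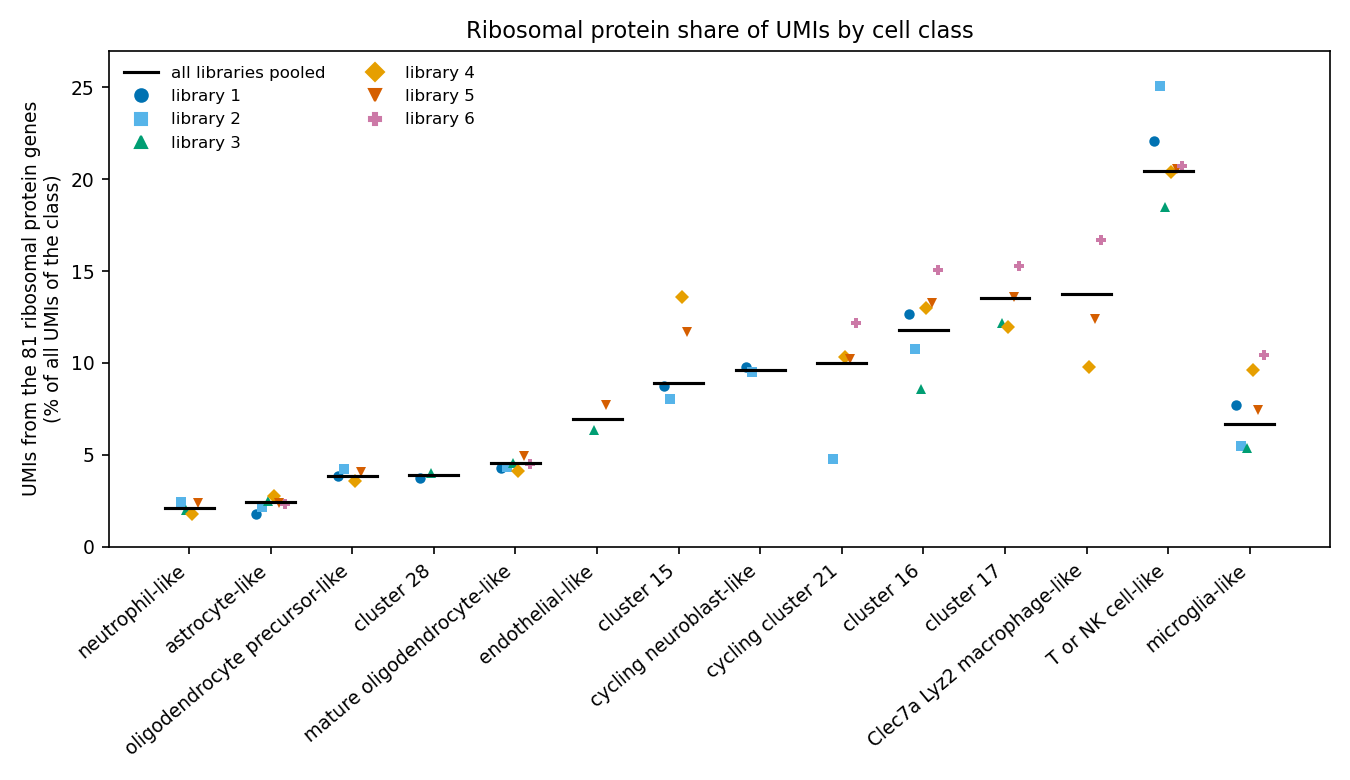
Share of all UMIs that came from the 81 ribosomal protein genes (y axis, %), for each class or cluster of at least 100 cells, with microglia-like cells on the right. Black bars are pooled values and each symbol is 1 library with at least 20 cells of the class; the T or NK cell-like symbols lie between 18.5% and 25.1% and the astrocyte-like symbols between 1.80% and 2.75%.

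The other classes and clusters held between 2.11% and 19.4%. Neutrophil-like cells, short-lived cells with little RNA, held 2.11% at a median of 1193 UMIs, and oligodendrocyte precursor-like cells held 3.85%. Endothelial-like cells held 6.96%. Endothelial markers summed to 3862 CPM in them, mural markers to 2614 CPM, fibroblast markers to 667 CPM and red cell markers to 12995 CPM. The part of these other markers in the values of this class was not tested. Cycling neuroblast-like cells held 9.59%, and cycling cluster 21, in which 12 of 13 measured microglia markers, 5 of 7 macrophage markers and 14 of 14 cycling markers were found, held 10.02%. The small B cell-like class of 55 cells held 19.4% pooled. Only library 3, with 22 of these cells, had enough to be measured alone, at 19.1%. Cluster 17, led by the MHC class II genes RT1-Db1 and RT1-Da, held 13.5%, and cluster 15, led by RT1-Ba, RT1-Da and RT1-Db1, held 8.90%; neither has a class name.

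T or NK cell-like cells comprised 3 clusters whose ribosomal protein shares did not overlap between libraries. Cluster 23 had 647 CPM of Ccr7 and 676 CPM of Tcf7, genes known from naive and central memory T cells, and held 28.7% ribosomal protein UMIs, between 26.1% and 31.0% in the 5 libraries with enough cells. Cluster 18, with 1168 CPM of Nkg7 and 713 CPM of Cd3e, held 19.6%, between 17.6% and 21.5% in 4 libraries. Cluster 19, with 3318 CPM of the granzyme Gzma, 2819 CPM of perforin (Prf1) and 5.16 CPM of Cd3e, held 15.3%, between 14.4% and 17.0% in 5 libraries. Among cells of 4000 to 8000 UMIs the order was unchanged, at 30.0%, 20.7% and 16.5%. For single members, cluster 23 over cluster 19 gave a median log2 ratio of 0.83, against -0.15 over all genes, and 78 of the 81 ratios were above 0. Rps19 had the largest, with 4337 CPM in cluster 23 and 1510 CPM in cluster 19 (log2 ratio 1.52). Rps27l, Rpl7l1 and Rpl10l were at or below 0, with log2 ratios of -0.07, -0.20 and -0.48.

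The share also varied with the depth of the cells, and not in the same direction in all classes. In microglia-like cells it was 2.28% among cells of 500 to 1000 UMIs and 10.6% among cells of 16000 UMIs or more. Macrophage-like cells held 5.92% and 18.8% at the same ends, and T or NK cell-like cells held 10.5% at 1000 to 2000, 18.2% at 2000 to 4000, 22.1% at 4000 to 8000 and 21.3% at 8000 to 16000 UMIs. Astrocyte-like cells went the other way, with 3.71% at the lowest depth and 2.39% at the highest, and oligodendrocyte-like cells stayed between 4.30% and 4.67%. At one depth, 4000 to 8000 UMIs, the order of the classes was as in all cells, with 22.1% in T or NK cell-like, 12.9% in macrophage-like, 4.63% in oligodendrocyte-like, 2.40% in astrocyte-like and 6.14% in microglia-like cells. Below 1000 UMIs astrocyte-like and microglia-like cells stood in the reverse order. At 1000 to 2000 UMIs oligodendrocyte-like cells, at 4.67%, lay above microglia-like cells, at 3.49%, and astrocyte-like cells held 3.25%. At that depth astrocyte-like cells were above microglia-like cells in library 4 (4.77% and 3.42%) and library 5 (2.90% and 2.75%). In libraries 1, 2 and 3 they were below. The share of mitochondrial UMIs differed between classes too, with medians of 12.3% in astrocyte-like, 11.5% in oligodendrocyte-like, 8.82% in macrophage-like, 5.73% in T or NK cell-like and 5.68% in microglia-like cells. With mitochondrial genes left out of the total, the ribosomal shares were 2.77%, 5.17%, 15.03%, 21.8% and 7.14% in that order of classes.

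**Figure D2:**
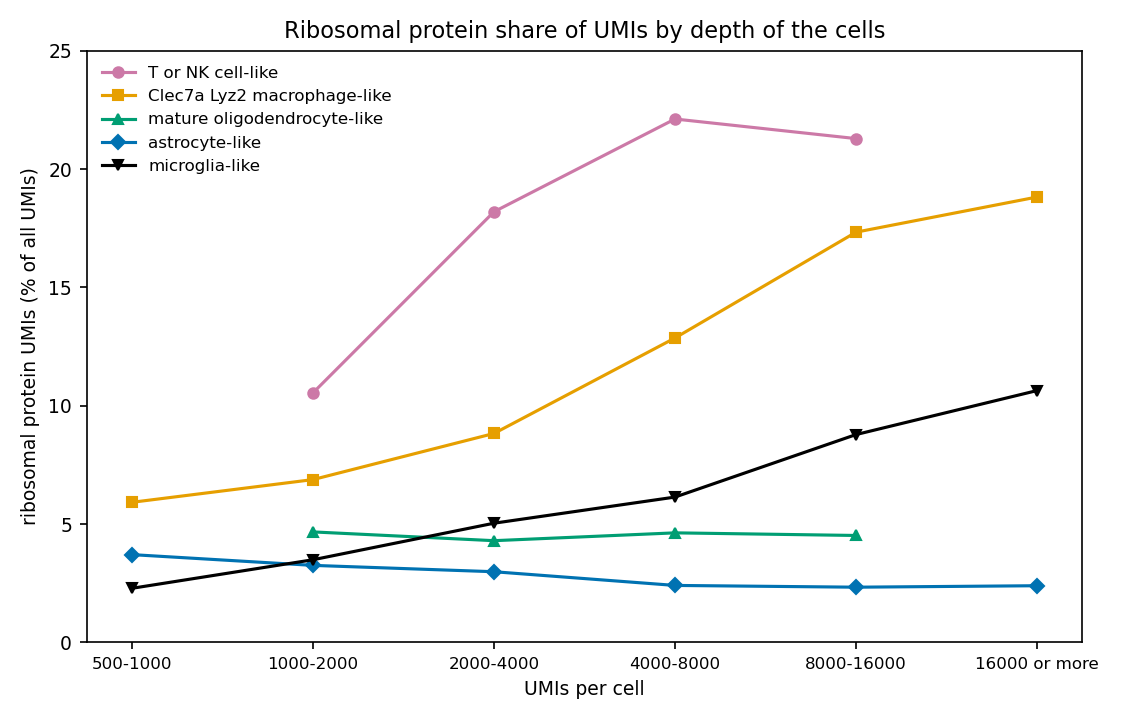
Share of UMIs from ribosomal protein genes (y axis, %) among cells of 6 ranges of depth (x axis, UMIs per cell) in 5 classes, pooled over libraries. Points rest on at least 20 cells; the microglia-like line climbs between 2.28% and 10.6%, the oligodendrocyte-like line is nearly flat, and the astrocyte-like line is lower at high depth than at low.

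For single genes, the summed UMIs of each class gave its CPM, and the log2 ratio of CPM + 10 over microglia-like cells was taken. A ratio of at least 2-fold was counted. In astrocyte-like cells, 60 of the 81 members were at least 2-fold lower and 0 were at least 2-fold higher, where 12.8% of the 10574 genes with at least 5 CPM were as much lower and 21.1% as much higher. The median log2 ratio was -1.38 for the members and 0.21 for all genes. With size factors by median of ratios, the median of all genes was 0.00 and that of the members -1.70. In libraries 1 to 6, 69, 56, 40, 70, 65 and 73 members were at least 2-fold lower, against 13.4%, 13.1%, 12.1%, 12.7%, 14.6% and 13.5% of all genes, and 40 members were so in each of the 6 libraries, against 9.39% of all genes. The lowest count, 40, was in library 3; without that library the pooled count was 63.

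Microglia markers summed to 1292 CPM in astrocyte-like cells, against 30417 CPM in microglia-like cells, and astrocyte markers to 32478 CPM, against 1509 CPM. One astrocyte-like cluster departed from this. Cluster 13, of which 1071 of 1114 cells were in library 4, held 6.82% ribosomal protein UMIs where the other astrocyte-like clusters held between 1.69% and 3.10%, and microglia markers summed to 8446 CPM in it, against 830 to 1324 CPM in the others. Their part in its ribosomal protein share was not tested. Without cluster 13, astrocyte-like cells held 2.21%, those of library 4 held 2.02%, and the pooled count of members at least 2-fold lower was again 60.

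In T or NK cell-like cells, 75 of the 81 members were at least 2-fold higher than in microglia-like cells and 0 at least 2-fold lower, where 6.53% of all genes were as much higher and 10.6% as much lower. The median log2 ratio was 1.54 for the members and 0.01 for all genes. In libraries 1 to 6 the counts were 73, 76, 76, 45, 72 and 34 members, against 7.21%, 6.36%, 8.12%, 5.51%, 5.97% and 5.81% of all genes, and 31 members were so in each library, against 2.79% of all genes. Without library 3, which held 346 of the 847 T or NK cell-like cells, the pooled count was 74. Libraries 4 and 6, with the lowest counts, were the libraries in which microglia-like cells held the most ribosomal protein UMIs. T and NK cell markers summed to 7490 CPM, against 138 CPM in microglia-like cells, and microglia markers to 1515 CPM.

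In Clec7a Lyz2 macrophage-like cells the pooled and the within-library values differed. Pooled, 42 members were at least 2-fold higher, against 4.06% of all genes, and 1, Rpl10l, at least 2-fold lower, against 4.14% of all genes, with a median log2 ratio of 1.02. Within libraries 4, 5 and 6 the counts were 0, 8 and 4 members, against 3.65%, 2.38% and 2.05% of all genes, and the median log2 ratios were -0.01, 0.69 and 0.63. The macrophage-like cells came from these 3 libraries, while 4332, 6088 and 7154 of the 20986 microglia-like cells came from libraries 1, 2 and 3, where that class held fewer ribosomal protein UMIs than in libraries 4 and 6. The pooled count therefore sets cells of different libraries against each other, and it was 24 without library 2, 26 without library 3 and 19 without library 6. Macrophage markers summed to 17878 CPM in macrophage-like and 1516 CPM in microglia-like cells, and microglia markers to 15756 CPM, against 30417 CPM. Among the macrophage-like clusters, cluster 3 held 8.78%, 10.1% and 11.8% in libraries 4 to 6, cluster 9 held 11.2%, 14.6% and 16.2%, and cluster 10 held 16.9%, 15.2% and 18.6%, and cluster 3 made up 1423 of 1724, 1988 of 3059 and 483 of 2521 macrophage-like cells of those libraries.

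In mature oligodendrocyte-like cells, 6 of the 81 members were at least 2-fold lower, a smaller part than the 12.9% of all genes that were as much lower. The median log2 ratio was -0.48 for the members and 0.08 for all genes, and 75 of the 81 ratios were below 0. Oligodendrocyte markers summed to 47740 CPM in these cells, against 809 CPM in microglia-like cells, and microglia markers to 1927 CPM. The class joins cluster 14, of 842 cells, and cluster 33, of 48 cells. In cluster 33 microglia markers summed to 18919 CPM and oligodendrocyte markers to 8401 CPM. It held 7.82% ribosomal protein UMIs, and 8.57% in library 5, where cluster 14 held 4.41% and 4.62%. The part of cluster 33 in the class values was not tested. In libraries 1 to 6 the counts were 18, 3, 3, 52, 5 and 51 members, against 15.1%, 13.9%, 13.4%, 15.2%, 14.4% and 20.6% of all genes. The counts above 50 were again in libraries 4 and 6, where the oligodendrocyte-like share was near that of other libraries and the microglia-like share was high.

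**Figure D3:**
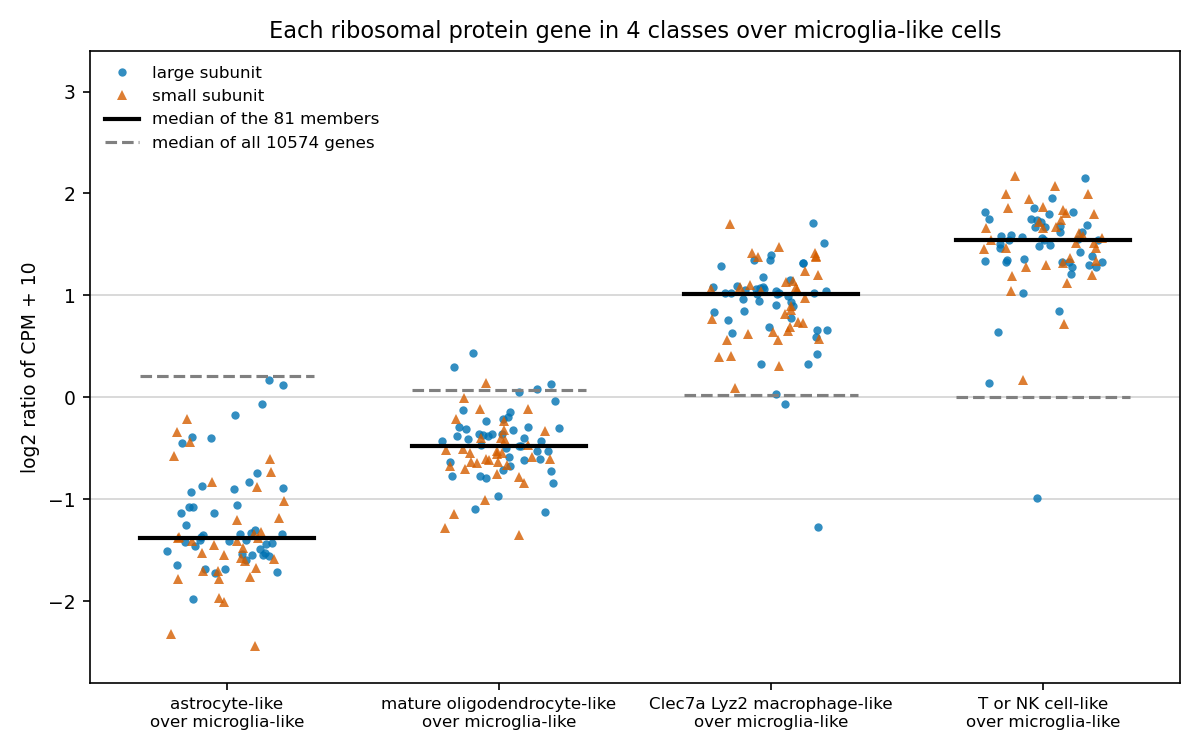
Log2 ratio of CPM + 10 (y axis) of each of the 81 members in 4 classes over microglia-like cells, pooled over libraries; circles are large-subunit and triangles small-subunit genes. Black bars are medians of the members (-1.38, -0.48, 1.02 and 1.54 from left to right), dashed grey bars medians of all 10574 genes, and light lines mark 2-fold; for macrophage-like cells the single libraries gave lower medians.

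Most members kept a similar part of the ribosomal protein UMIs across classes. As a share of all ribosomal protein UMIs, 73 of the 81 members in T or NK cell-like, 69 in macrophage-like, 67 in oligodendrocyte-like and 60 in astrocyte-like cells were within a log2 ratio of 0.5 of microglia-like cells. Dividing by the members' own total takes out their common shift, so these counts show only the spread around it. The same count over all genes was not made. The balance of the subunits moved little. Small-subunit genes made up 43.0% of ribosomal protein UMIs in astrocyte-like, 43.9% in oligodendrocyte-like, 45.7% in macrophage-like, 47.2% in T or NK cell-like and 46.5% in microglia-like cells. Over libraries the range was 41.6% to 44.99% in astrocyte-like and 45.4% to 48.7% in microglia-like cells, with library 3 at the top of both.

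Among small-subunit genes, Rps12 had the lowest ratio in astrocyte-like cells. It had 212, 240, 244, 309, 268 and 271 CPM in astrocyte-like cells of libraries 1 to 6, against 1843, 1282, 1049, 2325, 1754 and 2563 CPM for microglia-like cells, and the ranges did not overlap. Pooled, it had 274 CPM in astrocyte-like cells (exact Poisson 95% interval 270.1 to 277) and 1532 CPM in microglia-like cells (1524 to 1539). As a share of ribosomal protein UMIs its log2 ratio within a library was between -0.99 and -1.11 in all 6 libraries, a much narrower spread than that of the class totals. Rps12 was low in oligodendrocyte-like cells as well, with 504 to 734 CPM over libraries and share ratios between -0.66 and -1.10. Its protein is known in Drosophila for a role in cell competition.

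Rps4x, the X-linked S4 gene, had the next lowest ratio in astrocyte-like cells, with 165, 219, 311, 291, 246 and 226 CPM, against 1364, 894, 1520, 1586, 1219 and 1808 CPM in microglia-like cells. Rps3a and the large-subunit gene Rpl12, whose protein lies at the base of the stalk, followed, with pooled log2 ratios of -2.004 and -1.98. All 4 genes were at least 2-fold lower in each of the 6 libraries. In T or NK cell-like cells Rps4x, Rps3a and Rpl12 did not stand out, with pooled log2 ratios of CPM of 1.61, 1.72 and 1.58. Rps12, at 1.12, lay below the median of 1.54 of the members there. As a share of ribosomal protein UMIs its pooled log2 ratio in these cells was -0.48.

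Rps18 and Rps27, of the small subunit, and Rpl13, of the large, had the largest ratios in T or NK cell-like cells. Rps18 had 6016, 6256, 2493, 5209, 5184 and 5947 CPM in T or NK cell-like cells of libraries 1 to 6, against 1341, 885, 405, 1730, 1294 and 1934 CPM in microglia-like cells. Library 3 was the lowest in both classes, and the groups did not overlap. Within libraries the log2 ratio of Rps18 was between 1.58 and 2.81, that of Rpl13 between 1.47 and 2.75 and that of Rps27 between 1.61 and 2.68. As shares of ribosomal protein UMIs all 3 were higher in T or NK cell-like cells in every library, by 0.25 to 0.83 on the log2 scale. Rpsa, which also serves as a laminin receptor, had 3717 to 4381 CPM in T or NK cell-like cells, against 767 to 1570 CPM in microglia-like cells, over the 6 libraries. In macrophage-like cells, Rps18, Rplp0 and Rps28 were among the members with the largest pooled ratios, at 1.70, 1.52 and 1.47. Within libraries 4, 5 and 6 that of Rps18 was 0.52, 1.14 and 1.05.

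The stalk proteins Rplp0, Rplp1 and Rplp2, which recruit the elongation factors, did not keep one ratio across classes. Rplp1 took the most UMIs of all members, 2083 CPM over all barcodes. For each Rplp1 UMI there were 0.719 Rplp0 UMIs in astrocyte-like, 1.07 in oligodendrocyte-like, 1.24 in macrophage-like, 0.899 in T or NK cell-like and 0.674 in microglia-like cells. In single libraries the ratio was 1.20 to 1.48 in macrophage-like cells, 0.938 to 1.30 in oligodendrocyte-like cells and 0.591 to 0.931 in microglia-like cells. The macrophage-like and oligodendrocyte-like values lay above all microglia-like values. Those of astrocyte-like cells (0.661 to 0.813) and T or NK cell-like cells (0.714 to 1.23) overlapped the microglia-like ones. In T or NK cell-like cells the 1.23 was that of library 3, and the other libraries had at most 0.887. In microglia-like cells the 0.931 was that of library 3, and the other 5 libraries had at most 0.828. Rplp2 stayed close to the bulk of the members, with share ratios between -0.42 and 0.17 over all libraries and classes, and it was among the 4 members that varied least over libraries within microglia-like cells.

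Rps12 and Rps29 were among the members with the lowest pooled ratios in oligodendrocyte-like cells, at -1.28 and -1.15. Rps29 had 539, 617, 747, 587, 658 and 483 CPM in oligodendrocyte-like cells of libraries 1 to 6, against 1493, 1264, 1416, 1845, 1284 and 1638 CPM in microglia-like cells. As a share of ribosomal protein UMIs its log2 ratio was between -0.36 and -0.69 over the libraries. At the other end stood, among others, Rpl22l1, Rpl7l1 and Rpl38, with pooled ratios of CPM of 0.43, 0.30 and 0.13. Rpl5 and Rpl11, which join the 5S RNA and are known to bind Mdm2 when ribosome assembly fails, moved with the bulk, with log2 ratios of -1.33 and -1.41 for astrocyte-like and 1.56 and 1.67 for T or NK cell-like cells. Rps6, the substrate of the S6 kinases, had -1.45 and 1.54.

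**Figure D4:**
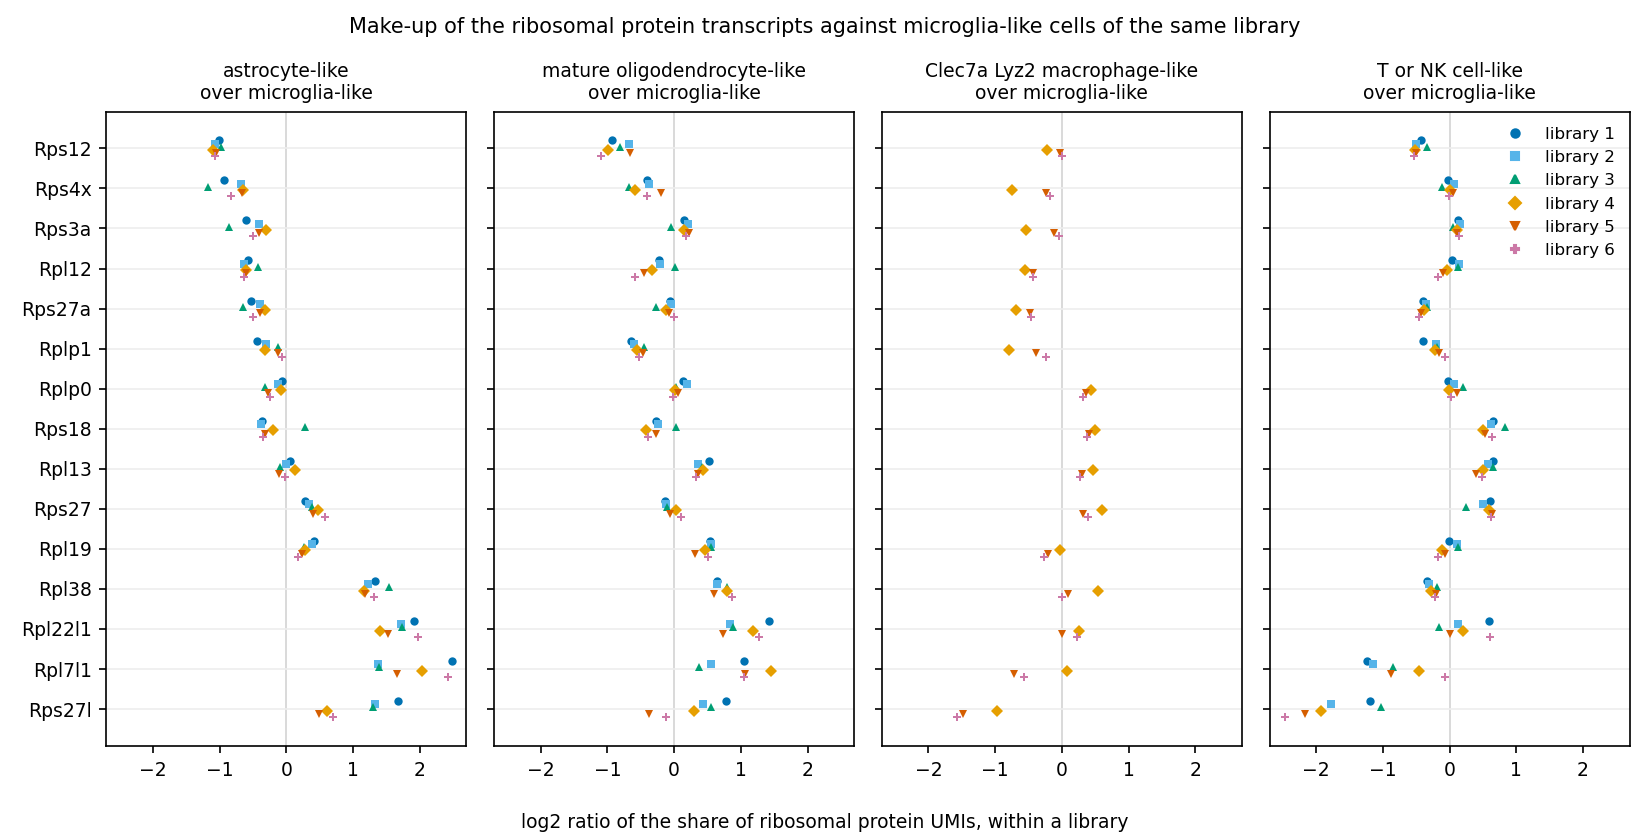
Log2 ratio of a member's share of all ribosomal protein UMIs (x axis) in 4 classes over microglia-like cells of the same library, for 15 named members (rows); each symbol is 1 library. Rps12 sits near -1 in astrocyte-like cells in all 6 libraries, and Rpl22l1, Rpl7l1 and Rpl38 lie above 1 there in each.

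Paralogues differed from the bulk. Rpl22l1 had 142, 186, 260, 184, 200 and 200 CPM in astrocyte-like cells of libraries 1 to 6, against 162, 144, 168, 243, 218 and 227 CPM for microglia-like cells, and the ranges overlapped. As a share of ribosomal protein UMIs it was higher in astrocyte-like cells in every library, by 1.40 to 1.97 on the log2 scale. In T or NK cell-like cells Rpl22l1 went with the bulk (519 to 719 CPM). Its partner Rpl22, whose protein represses Rpl22l1 in mouse, had few counts, 17.8, 21.99 and 19.05 CPM pooled in astrocyte-like, T or NK cell-like and microglia-like cells, and stayed near the same level in all 5 classes. Rpl7l1, known for a role in ribosome assembly, had 37.4 to 45.4 CPM in astrocyte-like and 31.2 to 41.0 CPM in microglia-like cells over libraries, and its pooled ratio in T or NK cell-like cells was 0.64.

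Rpl10l, a retrogene that in mouse is expressed in testis and takes the place of Rpl10 there, was lower in each of the 4 classes compared than in microglia-like cells. It had 3.90 CPM in astrocyte-like, 2.12 CPM in macrophage-like, 4.77 CPM in T or NK cell-like, 3.41 CPM in oligodendrocyte-like and 19.2 CPM in microglia-like cells. The counts behind these are 306, 87, 18, 17 and 2161 UMIs. Microglia-like cells of libraries 1 to 6 had 23.6, 11.4, 22.9, 21.6, 12.1 and 23.8 CPM, above every value of the other 4 classes, whose highest was 10.1 CPM in T or NK cell-like cells of library 6. Endothelial-like cells, a class of 129 cells that also held markers of other classes, had 34.8 CPM pooled. The table holds no gene under the symbol Rpl10. Whether reads of Rpl10 were counted under the name Rpl10l is not given in the sources used here. The same limit holds for the 5 features that share a symbol and for Rps18l1, Rpl31l4, Rpl35al1, Rps15al4 and Rps10l1, near-copies among which the authors' counting could split reads.

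Rps27l, a paralogue of Rps27 that is known as a p53 target in human and mouse cells, varied widely between libraries in 1 class. In microglia-like cells it had 93.5, 79.8, 92.8, 245, 239 and 320 CPM in libraries 1 to 6. Astrocyte-like cells had 69.8, 78.7, 106, 108, 107 and 116 CPM, and T or NK cell-like cells 115, 105, 156, 135, 145 and 113 CPM. Macrophage-like cells of libraries 4, 5 and 6 had 127, 142 and 172 CPM, below the microglia-like cells of each of those libraries. Its log2 ratio in astrocyte-like over microglia-like cells was -0.38, -0.02 and 0.17 in libraries 1 to 3 and -1.12, -1.10 and -1.39 in libraries 4 to 6. The pooled ratio of -0.21 lies within the range of libraries 1 to 3 and does not describe libraries 4 to 6. Most microglia-like cells of libraries 4 to 6 lay in cluster 5, and those of the other libraries in clusters 0, 1, 2 and 6, as given above. Rps27 itself had 1203, 975.2, 696, 1412, 1212 and 1431 CPM in microglia-like cells.

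Library 3 departed in the make-up of its ribosomal protein transcripts mainly in microglia-like and T or NK cell-like cells. Rps18 made up 0.914% of ribosomal protein UMIs in astrocyte-like, 1.35% in T or NK cell-like, 0.770% in oligodendrocyte-like and 0.757% in microglia-like cells of library 3. In the other 5 libraries it made up 1.24% to 1.56% in astrocyte-like, 2.49% to 2.87% in T or NK cell-like, 1.35% to 1.44% in oligodendrocyte-like and 1.62% to 1.85% in microglia-like cells. Library 3 was thus below all the others in the 4 classes. Rps27a, made as a fusion with ubiquitin, went the other way, with 2.54%, 3.15%, 3.29% and 3.99% in those classes of library 3 and at most 1.96%, 1.94%, 2.58% and 2.59% in the other libraries. In microglia-like cells, 11 members were over 1.5-fold above and 9 over 1.5-fold below the range of the other libraries in library 3, by share of ribosomal protein UMIs, and in no other library did more than 2 members lie that far out in this class. Above and below, 8 and 6 members of library 3 lay that far out in T or NK cell-like cells. Astrocyte-like cells had 2 and 1, and oligodendrocyte-like cells 0 and 2, where library 6 had 0 and 3. In all 4 classes at once, 0 members did so. By CPM, in microglia-like cells, 0 members lay that far above and 11 that far below in library 3, or 13.6% of them, against 4.67% of all genes with at least 5 CPM. In T or NK cell-like, astrocyte-like and oligodendrocyte-like cells it was 16.0%, 1.23% and 3.70% of members, against 2.94%, 5.86% and 4.75% of all genes. In microglia-like cells of any other library at most 0.218% of all genes lay that far out by CPM, while in the smaller classes other libraries reached 10.9% (library 6, oligodendrocyte-like) and 4.27% (library 1, T or NK cell-like). Without library 3, the pooled share was 21.4% in T or NK cell-like and 7.24% in microglia-like cells. What sets library 3 apart was not tested.

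**Figure D5:**
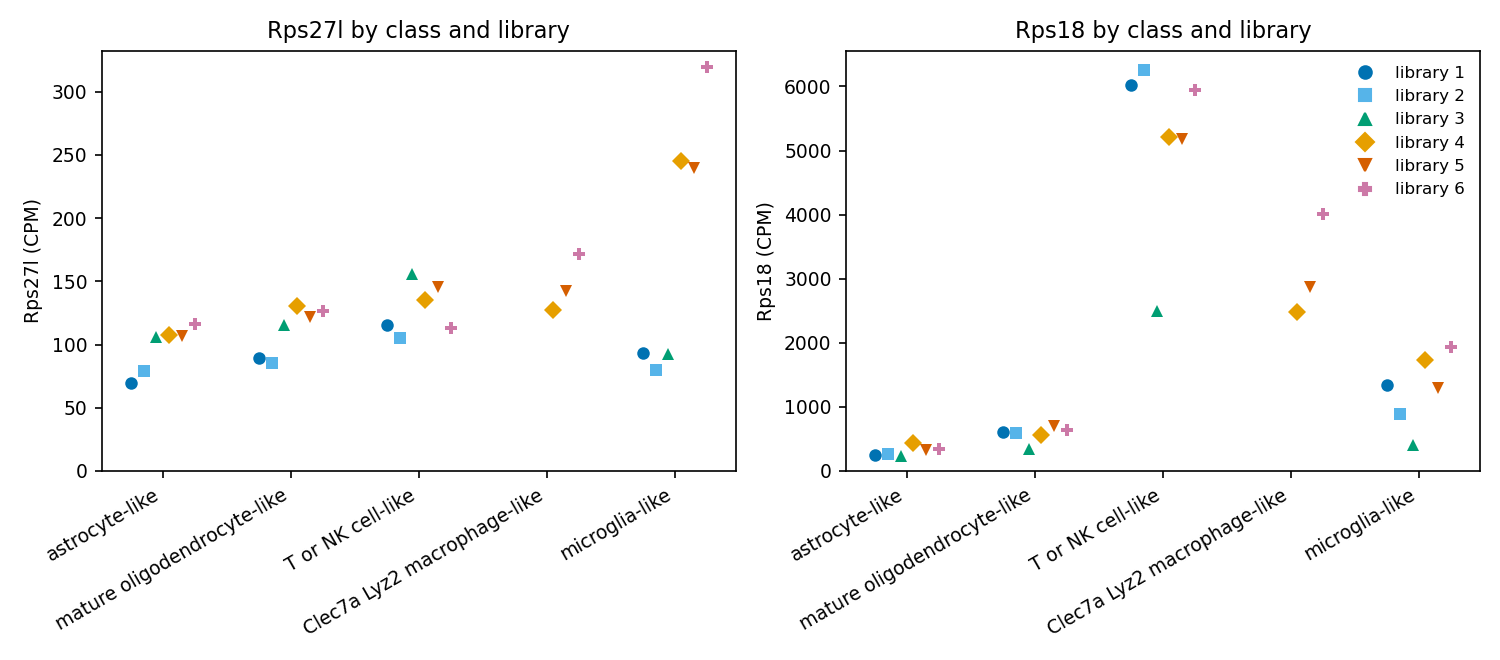
CPM of Rps27l (left) and Rps18 (right) by class (x axis, microglia-like on the right); each symbol is 1 library. Rps27l in microglia-like cells is at 79.8 to 93.5 CPM in libraries 1 to 3 and at 239 to 320 CPM in libraries 4 to 6, and Rps18 is lowest in library 3 in each of the 4 classes measured there.

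The sequence around the annotated start was read from RefSeq promoters of the rat assembly GRCr8, which held 58 of the 76 symbols. A pyrimidine tract was counted where a run of at least 6 C or T bases on the transcript's strand touched the 10 bases on either side of the start. Of the 58 members, 44 (75.9%) had one, against 28.3% of all 33469 promoters. The members were counted with 1 promoter per symbol, while all promoters were counted without that reduction, here and in the percentages that follow. Within 250 bases before to 50 after the start, and on both strands, CTTTCC was found in 46.6% of members and 26.4% of all promoters, and CCGGAAG in 31.0% and 8.75%. CTTTCC can lie inside a pyrimidine tract, and did so or overlapped one in 24.1% of members and 1.30% of all promoters. The 12 sequences below run from 35 bases before to 25 bases from the start on, 5′ to 3′, with the tract in capitals. The first 5 belong to members with a high level or a high ratio in T or NK cell-like cells, the next 4 to those lowest in astrocyte-like cells, and the last 3 to those highest there.
Rplp1: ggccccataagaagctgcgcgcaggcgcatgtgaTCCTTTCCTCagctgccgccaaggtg
Rpl19: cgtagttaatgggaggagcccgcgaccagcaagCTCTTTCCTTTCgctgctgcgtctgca
Rps18: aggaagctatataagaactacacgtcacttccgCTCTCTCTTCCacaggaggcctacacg
Rpl13: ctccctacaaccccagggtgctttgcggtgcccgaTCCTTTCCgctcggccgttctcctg
Rps27: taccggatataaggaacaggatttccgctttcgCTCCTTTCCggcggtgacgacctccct
Rps12: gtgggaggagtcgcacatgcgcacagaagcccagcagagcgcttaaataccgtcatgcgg
Rps4x: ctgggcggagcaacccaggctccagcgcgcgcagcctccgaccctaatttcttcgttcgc
Rps3a: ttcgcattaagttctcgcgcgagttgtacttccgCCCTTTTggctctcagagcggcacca
Rpl12: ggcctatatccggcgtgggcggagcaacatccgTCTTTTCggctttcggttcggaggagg
Rpl22: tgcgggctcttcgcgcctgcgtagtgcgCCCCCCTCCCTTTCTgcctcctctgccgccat
Rpl22l1: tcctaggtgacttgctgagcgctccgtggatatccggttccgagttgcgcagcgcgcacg
Rpl7l1: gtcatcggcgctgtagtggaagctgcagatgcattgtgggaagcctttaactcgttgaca

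In GRCr8 the plus-strand windows lie at chr10:83519029-83519088 for Rpl19, chr20:4933710-4933769 for Rps18, chr19:68062479-68062538 for Rpl13 and chr1:23500040-23500099 for Rps12. Those of Rpl12, Rpl22, Rpl22l1 and Rpl7l1, also on the plus strand, lie at chr3:36661905-36661964, chr5:168117926-168117985, chr2:113683161-113683220 and chr9:21695683-21695742. On the minus strand lie Rplp1 at chr8:71290848-71290907, Rps27 at chr2:177964582-177964641, Rps4x at chrX:71342897-71342956 and Rps3a at chr2:173827018-173827077. The tract spans the annotated start in 7 of the 8 printed sequences that hold one, and all 5 of the first set hold one. Rpl22l1 and Rpl7l1, which departed from the bulk in astrocyte-like cells, have none touching the 10 bases on either side of the start, and neither have Rps12 and Rps4x, which departed in the opposite direction, and Rpl22 has the longest of the 12, at 15 bases. Over the 58 members the class ratios did not separate by it. In astrocyte-like over microglia-like cells the median log2 ratio was -1.42 for the 44 members with a tract and -1.40 for the 14 without, and in T or NK cell-like over microglia-like cells it was 1.58 and 1.56. A missing run says only that these letters are not at the annotated start, which can differ from the start used in these cells.

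Other genes of translation were taken from lists of which only genes with at least 5 CPM were counted. Over all genes, 12.8% were at least 2-fold lower and 21.1% at least 2-fold higher in astrocyte-like cells. In T or NK cell-like cells 6.53% of all genes were at least 2-fold higher. Fau and Rack1, ribosomal proteins with other names, had log2 ratios of -1.54 and -1.19 for astrocyte-like and 0.85 and 1.39 for T or NK cell-like cells. Of 14 elongation factors and other genes with 5′ TOP mRNAs, 3 were at least 2-fold lower in astrocyte-like cells (Eef1a1, Tpt1 and Pabpc1) and 10 at least 2-fold higher in T or NK cell-like cells, with medians of -0.57 and 1.26. Eef1a1, which brings the aminoacyl-tRNA to the ribosome, had 249 CPM in astrocyte-like, 2549 CPM in T or NK cell-like and 1294 CPM in microglia-like cells. Of 30 ribosome biogenesis genes, 3 were at least 2-fold lower in astrocyte-like cells, namely Myc, Npm1 and Polr1d, and 1, Npm1, at least 2-fold higher in T or NK cell-like cells, with medians of -0.11 and 0.48. Both counts are smaller parts than those of all genes. Of 19 initiation factors, 0 were lower and 1 was higher by that measure in astrocyte-like cells, and 4 were higher in T or NK cell-like cells (medians -0.03 and 0.45). The 11 genes of the TOR pathway had medians of 0.78 and 0.03 in these pairs. The 69 mitochondrial ribosomal proteins, which belong to another ribosome, had medians of 0.48 and 0.19 and in astrocyte-like cells 0 of them were at least 2-fold lower and 8 at least 2-fold higher, a smaller part than the 21.1% of all genes given above. All genes had medians of 0.21 and 0.01 in these pairs, and the difference between the lists was not tested.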

How the data were processed

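The deposited file holds raw UMI counts, whole numbers per gene and barcode, written by Cell Ranger 7.0.0 per the file headers. Per the submitters' processing notes the build is mm10, a mouse build, while the identifiers are rat Ensembl ones. The sources used here do not give the annotation or whether introns were counted. Barcodes with at least 500 UMIs, 200 genes and at most 20% mitochondrial UMIs were kept (48704), and the 3311 nearest to simulated doublets were removed (0.8% per 1000 barcodes of a library). Counts scaled to 10000 per cell were clustered (Leiden, resolution 1.0, 15 neighbours, 30 components, 2000 variable genes without ribosomal protein or mitochondrial genes; leidenalg 0.10.2, python-igraph 0.11.9, SciPy 1.17.1, Python 3.11.15). A cluster took a class name where that class's marker score (mean log2 ratio) reached 1 and led by 1, with 3 markers in at least 10% of its cells. Ratios had 10 CPM added, or the same fraction of ribosomal protein UMIs for shares, and libraries needed at least 20 cells of both classes. Calls by fold were tested on simulated data.

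Members named were the 6 with most UMIs, for each of the 4 class pairs the 4 highest and 4 lowest by CPM and by share, the 4 most and least variable over libraries, paralogue pairs and members of known role; a few that the rule takes are not reported here. The members and lists were chosen with earlier results of these data known. Libraries are not tied to samples, and no test between classes was run. Alternatives tried are the mitochondrial limit, doublets, clustering genes, naming, denominator, scaling, added CPM, minimum level, depth and libraries left out.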

Additional observations from a re-analysis of the deposited data

How the results depend on the processing

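No paired analysis was possible because no label ties the barcode endings to the samples, so that the shared sample numbers 1 to 3 belong to no library. Shares of UMIs are given in the order T or NK cell-like, macrophage-like, oligodendrocyte-like, astrocyte-like, microglia-like. With a mitochondrial limit of 10% they were 20.6%, 15.1%, 4.95%, 2.78% and 6.50%. With doublets kept they were 17.8%, 13.5%, 4.69%, 2.61% and 6.19%, and with cells named one by one by marker score 18.01%, 14.1%, 4.67%, 2.40% and 6.41%. Without mitochondrial genes in the total they were 21.8%, 15.03%, 5.17%, 2.77% and 7.14%. As medians over libraries they were 20.6%, 12.4%, 4.41%, 2.35% and 7.59%. Among cells of 4000 to 8000 UMIs, a setting added after the data were seen, they were 22.1%, 12.9%, 4.63%, 2.40% and 6.14%. With ribosomal protein genes in the clustering, macrophage-like cells held 13.7% and microglia-like cells 6.76%. Without cluster 13, also added, astrocyte-like cells held 2.21%. Leaving out 1 library at a time gave 19.9% to 21.4%, 11.5% to 14.8%, 4.35% to 4.64%, 2.29% to 2.48% and 6.34% to 7.24%. Under all these settings the order of the 5 shares was as pooled.

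The count of members at least 2-fold higher in macrophage-like cells, 42 pooled, was 19 to 53 with 1 library left out (24 without library 2, 26 without library 3 and 19 without library 6), and its median within libraries, an added setting, was 4. The count at least 2-fold lower in oligodendrocyte-like cells, 6 pooled, was 4 to 7 with 1 library left out, 1 with doublets kept, 2 with cells named by score and 11.5 as a median within libraries. The causes were not tested. Counts in T or NK cell-like and astrocyte-like cells stayed within 1.5-fold under each setting. Depth limits Rpl10l, Rpl22 and the copies under 20 CPM most.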

Other observations

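Classes of fewer cells added to the range of member ratios over microglia-like cells. In neutrophil-like cells the median log2 ratio of the 81 ribosomal protein genes was -1.65, where all genes had -0.30, and in oligodendrocyte precursor-like cells it was -0.73, where all genes had 0.46. In cycling neuroblast-like cells it was 0.51 against 0.30 for all genes, and in endothelial-like cells 0.11 against 0.16. Neutrophil-like cells held a median of 1193 UMIs, far fewer than microglia-like cells at 4827, and the part of this in the ratio was not tested.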
